A study of Arabidopsis thaliana with 20 samples.

Results

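The genes described here are 9 Arabidopsis thaliana genes of the glyoxylate cycle and of the entry into gluconeogenesis, out of 33602 genes in the deposited chromatin-bound tables. They were taken by gene identifier, namely ICL (AT3G21720), MLS (AT5G03860), CSY2 (AT3G58750), CSY3 (AT2G42790), PMDH1 (AT2G22780), PMDH2 (AT5G09660), ACO3 (AT2G05710), PCK1 (AT4G37870) and PCK2 (AT5G65690). The set was proposed because ICL and MLS stood out among the rises in chromatin-bound RNA, so the chromatin-bound values below describe the genes and carry no test of their own. The mRNA values were also known when the set was proposed. All 9 genes were found in each table, and all 9 passed the filter of a mean of at least 1 FPKM (fragments scaled by gene length and by the fragments of the column) over the chromatin-bound columns.

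Whole seedlings grown for 10 days at 22 °C, with 16 h of light and 8 h of dark, were compared between the rz-1b rz-1c double mutant and the wild type Col-0. RZ-1B and RZ-1C are RNA-binding proteins with known roles in pre-mRNA splicing, and the kind of allele and the number of lines are not given in the sources used here. Chromatin-bound RNA, which stays with washed chromatin and was depleted of rRNA and of polyadenylated RNA, came from 4 libraries per genotype under 2 replicate numbers, and the tables hold 1 column per number, so n = 2 per genotype. For mRNA, 3 libraries per genotype stand behind 1 deposited value per genotype and a q value. The labels do not say whether replicates were separate cultures, so spread and p-values measure only these samples.

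The glyoxylate cycle lets a seedling turn the acetyl-CoA from stored oil into sugar. Peroxisomal citrate synthase (CSY2, CSY3) and aconitase make isocitrate, isocitrate lyase (ICL) splits it into succinate and glyoxylate, and malate synthase (MLS) joins glyoxylate with a further acetyl-CoA to give malate. Phosphoenolpyruvate carboxykinase (PCK1, PCK2) then turns oxaloacetate into phosphoenolpyruvate, the first step towards sugars, and the peroxisomal malate dehydrogenases (PMDH1, PMDH2) recycle NADH during fatty acid beta-oxidation and photorespiration. ICL and MLS are the enzymes particular to the cycle, and in oilseed seedlings they are known to be high after germination and to decline as the seedling greens.

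The labels were checked on the targeted genes and on the columns themselves. RZ-1C was at 4.59 and 4.27 FPKM in mutant and 16.7 and 13.1 FPKM in wild-type chromatin-bound RNA. RZ-1B was at 132 and 143 FPKM in mutant and 10.5 and 9.42 FPKM in wild-type chromatin-bound RNA, whereas in mRNA it was at 2.299 FPKM in mutant and 15.2 FPKM in wild-type seedlings, by the authors' deposited table. Low values move in steps of 1 fragment, which put the depth of mutant replicate 2 at 2.99 times and that of wild-type replicate 1 at 1.52 times that of wild-type replicate 2. Mutant replicate 1 came out at 2.81 times by way of mutant replicate 2 and at 1.40 times directly. These estimates disagree, so the depth of both mutant columns is uncertain, and the total count per library is not known. rRNA held 31.6% and 34.1% of the FPKM total in mutant columns and 53.6% and 60.5% in wild-type columns. The median log2 change over all genes, mutant minus wild type, was 0.27. The 6 green shoot markers summed to between 1506 and 1649 FPKM in mutant and between 1453 and 1883 FPKM in wild-type columns. The 5 root markers summed to between 30.4 and 40.3 FPKM in mutant and between 8.89 and 12.2 FPKM in wild-type columns. Of these, the iron uptake genes FRO2 and IRT1 had higher means in the mutant, and PRP3, TIP2;3 and EXPA7 had lower ones. In the authors' deposited table the root markers summed to 52.3 FPKM in mutant and 174 FPKM in wild-type mRNA.

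In chromatin-bound RNA the enzymes particular to the cycle were 17.5-fold (ICL) and 20.1-fold (MLS) higher in the mutant, while the means of the other 7 genes lay between 0.556 and 2.22 times those of the wild type. ICL was at 283 and 417 FPKM in the mutant columns and at 17.2 and 22.7 FPKM in the wild-type columns. MLS was at 66.2 and 54.4 FPKM in the mutant columns and at 3.18 and 2.83 FPKM in the wild-type columns. For both genes every mutant column stood far above every wild-type column. The ratios of single mutant to single wild-type columns ran from 12.5 to 24.2 for ICL and from 17.1 to 23.4 for MLS. The log2 change was 4.05 (SE 0.24) for ICL and 3.93 (SE 0.19) for MLS. Across all genes tested, ICL had the 11th and MLS the 15th largest log2 increase.

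The citrate synthase genes went in opposite directions. CSY2 was at 11.5 and 10.4 FPKM in the mutant columns and at 20.7 and 18.9 FPKM in the wild-type columns, so the mutant mean was 0.556 times that of the wild type. CSY3 was at 19.1 and 20.9 FPKM in the mutant columns and at 14.0 and 15.7 FPKM in the wild-type columns, a 1.35-fold higher mean in the mutant. Neither gene's columns overlapped between genotypes, which held for 65.2% of all genes tested. CSY2, the higher of the pair in the wild type, was the lower in the mutant.

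The peroxisomal malate dehydrogenase genes also went in opposite directions, and they moved towards each other. PMDH1 was at 48.0 and 45.2 FPKM in the mutant and at 31.8 and 26.3 FPKM in the wild type, a 1.601-fold higher mean in the mutant. PMDH2 was at 65.5 and 72.1 FPKM in the mutant and at 92.3 and 74.7 FPKM in the wild type, a mean 0.824 times as high. PMDH2 remained the higher of the pair in every column, although its highest mutant column lay only just below its lowest wild-type column.

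The aconitase gene ACO3, whose enzyme makes isocitrate and is shared with the mitochondrial citric acid cycle, differed least. It was at 106 and 125 FPKM in the mutant columns and at 97.51 and 97.52 FPKM in the wild-type columns. Its log2 change was 0.24 (SE 0.17), which is below the 0.27 shift of the median gene, and it was -0.04 after median-of-ratios rescaling and -0.09 with rRNA left out of the column totals.

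Of the carboxykinase genes, PCK1 was the major one in every column. It was at 163 and 208 FPKM in the mutant columns and at 105 and 133 FPKM in the wild-type columns, 1.56-fold higher in mean. PCK2 was at 8.39 and 4.08 FPKM in the mutant columns and at 2.12 and 3.497 FPKM in the wild-type columns. Columns of the genotypes did not overlap for either gene, which held for 65.2% of all genes tested. The 2 mutant columns of PCK2 differed by 2.06-fold, the widest replicate gap of the 9 genes.

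**Figure D1:**
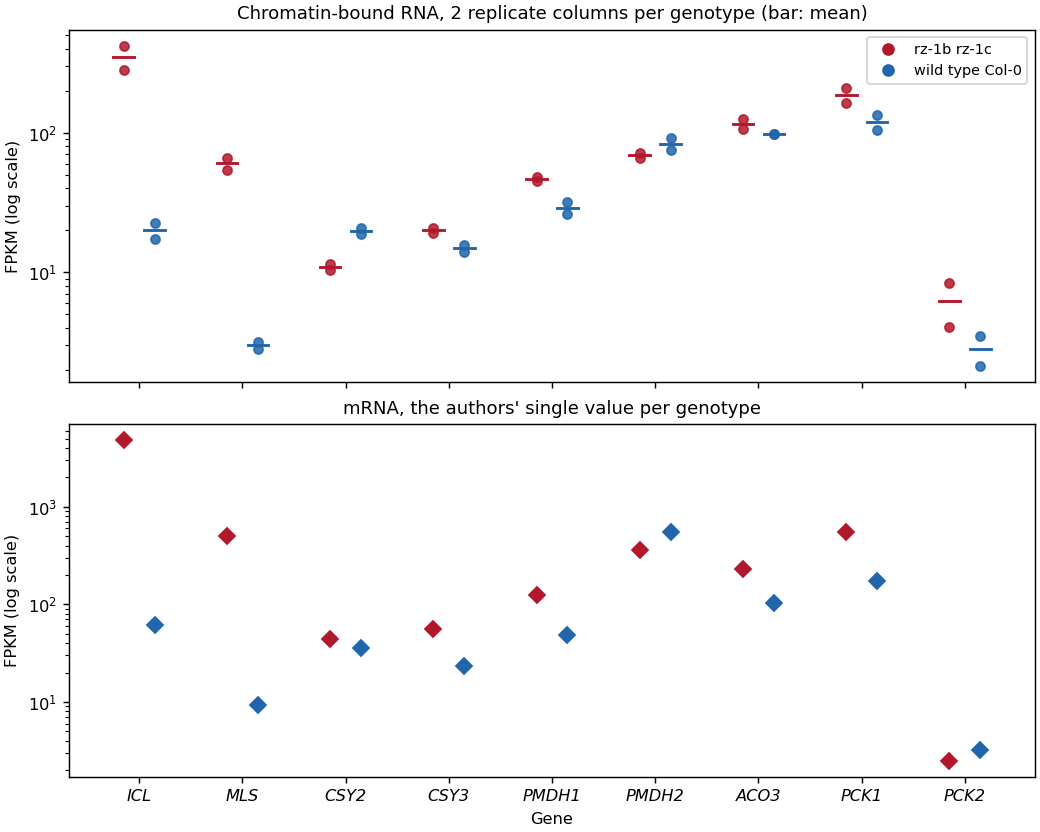
FPKM of the 9 genes on a log axis, rz-1b rz-1c left of wild type for each gene. The upper panel shows chromatin-bound RNA with 2 replicate columns per genotype as points and their mean as a bar, and the lower panel the authors' single mRNA value per genotype. ICL and MLS show the wide gaps between genotypes in both panels, CSY2 is lower in mutant chromatin-bound RNA only, and ACO3 has the smallest chromatin-bound gap.

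The order of the genes by chromatin-bound level changed with genotype. In the mutant, ICL had the highest mean at 349.9 ± 94.4 FPKM, followed by PCK1 at 186 ± 32.1 and ACO3 at 115 ± 13.7 FPKM (SD, n = 2). In the wild type, PCK1 was first at 119 ± 19.8 FPKM, and ICL was in place 5 at 19.95 ± 3.85 FPKM (SD, n = 2), with columns that overlapped those of CSY2 next to it. MLS was in place 5 in the mutant, where its columns overlapped those of PMDH2, and in place 8 in the wild type, where they overlapped those of PCK2. The other neighbours in both orders did not overlap. ICL and MLS together made up 45.4% and 49.2% of the summed FPKM of the 9 genes in the mutant columns, against 5.32% and 6.45% in the wild-type columns. The sum of the other 7 genes was 421 and 486 FPKM in the mutant and 363 and 369.7 FPKM in the wild type.

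limma on log2(FPKM + 1), fitted to all 19694 genes with Benjamini-Hochberg adjustment, called 17.4% of them at the 0.05 threshold, with 2595 calls up and 835 down in mutant seedlings. It called 4 of the 9 genes, with ICL, MLS and PMDH1 higher and CSY2 lower. Since the set was proposed from this contrast, nothing is read from that count. Columns of the genotypes did not overlap for 9 of the 9 genes, 7 higher and 2 lower, and that held for 65.2% of all genes tested, 49.5% higher and 15.7% lower. After median-of-ratios rescaling the calls over all genes were 1329 higher and 1544 lower, and the call of PMDH1 was lost, as it was after quantile normalization, with rRNA left out of the totals, without the filter on low values, and when wild-type replicate 2 or 1 of the mutant replicates was dropped. CSY2 lost its call without the filter and with either mutant replicate left out, and PMDH2 was called lower only with rRNA left out of the totals. With the replicate number as a block PCK1 was called higher as well.

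ICL and MLS kept their calls in 12 of 12 alternatives each, with log2 changes from 3.73 to 4.33 for ICL and from 3.65 to 4.28 for MLS. CSY2 ranged from -1.10 to -0.73 and was called in 9 of 12. CSY3 ranged from 0.09 to 0.48 and was called in 0 of 12, and PCK1 from 0.31 to 0.81 with 1 call in 12. ACO3 was the gene whose sign depended on scaling, with a range from -0.09 to 0.36.

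**Figure D2:**
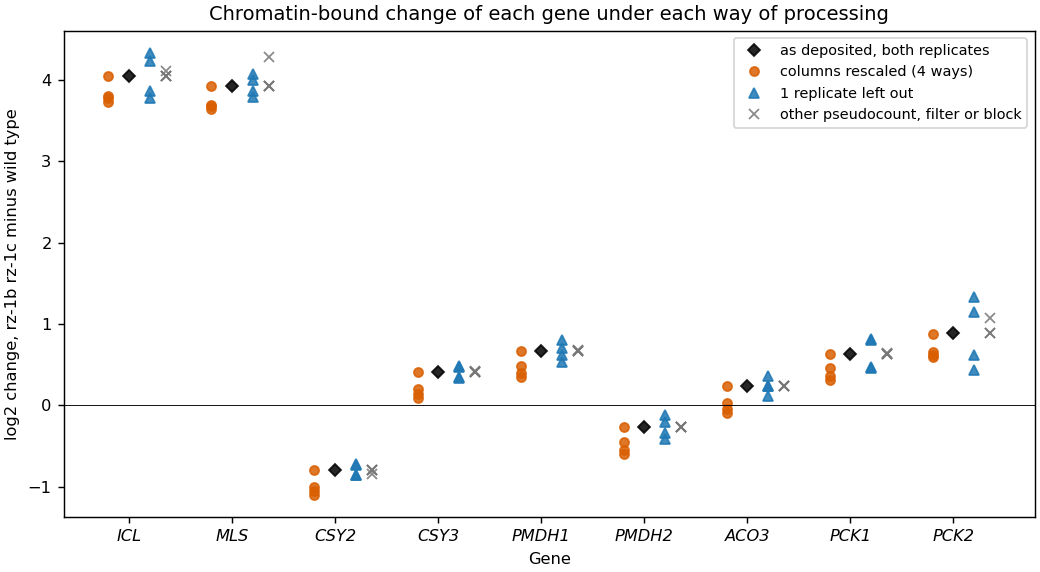
log2 change in chromatin-bound RNA (rz-1b rz-1c minus wild type, on log2(FPKM + 1) apart from the smaller pseudocount) of each gene under the deposited values, 4 rescalings, 4 fits with 1 replicate left out, and other pseudocount, filter or block. ICL and MLS stay between 3.65 and 4.33, CSY2 and PMDH2 stay below 0, and ACO3 crosses 0 under rescaling.

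A level set against genes of the same column does not depend on the column's total. Relative to the geometric mean of 8 housekeeping genes, ICL was 7.11 and 11.5 in the mutant columns and 0.434 and 0.627 in the wild-type columns. MLS was 1.66 and 1.51 in the mutant columns and 0.0801 and 0.0782 in the wild-type columns. The housekeeping mean itself was 39.8 and 36.1 FPKM in the mutant and 39.7 and 36.1 FPKM in the wild type, without the shift of the median gene. On this scale ACO3 overlapped between genotypes, at 2.66 and 3.47 in the mutant and 2.46 and 2.70 in the wild type, and the other 8 genes did not overlap. The share of all genes without overlap was not computed on this scale. On the deposited scale it was 65.2%, so nothing is read from that count.

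Ratios between paired genes within a column are likewise free of scaling. The ratio of CSY2 to CSY3 was 0.604 and 0.500 in the mutant columns and 1.47 and 1.20 in the wild-type columns. In log2 it was -0.86 ± 0.19 in the mutant and 0.41 ± 0.21 in the wild type (SD, n = 2 each), a difference of -1.28. The ratio of PMDH1 to PMDH2 was 0.732 and 0.627 in the mutant columns and 0.345 and 0.353 in the wild-type columns, with a log2 difference of 0.96. For both pairs the ratios did not overlap between genotypes, and the balance lay further towards CSY3 and towards PMDH1 in the mutant. The share of all gene pairs whose ratios separate in this way was not computed, so nothing is read from the separation itself. In contrast, the ratio of ICL to MLS was 4.28 and 7.65 in the mutant and 5.42 and 8.03 in the wild type, and the ratio of PCK1 to PCK2 was 19.4 and 51.1 in the mutant and 49.7 and 38.0 in the wild type. These ratios overlapped between genotypes, so no change in balance was detectable for them.

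In mRNA the authors' deposited table likewise gave shifts towards CSY3 and PMDH1. The mRNA ratio of CSY2 to CSY3 was 0.788 in the mutant and 1.54 in the wild type, and that of PMDH1 to PMDH2 was 0.351 in the mutant and 0.0885 in the wild type. PCK1 over PCK2 was 219 in the mutant and 54.4 in the wild type. With 1 value per genotype these mRNA ratios have no replicate check.

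**Figure D3:**
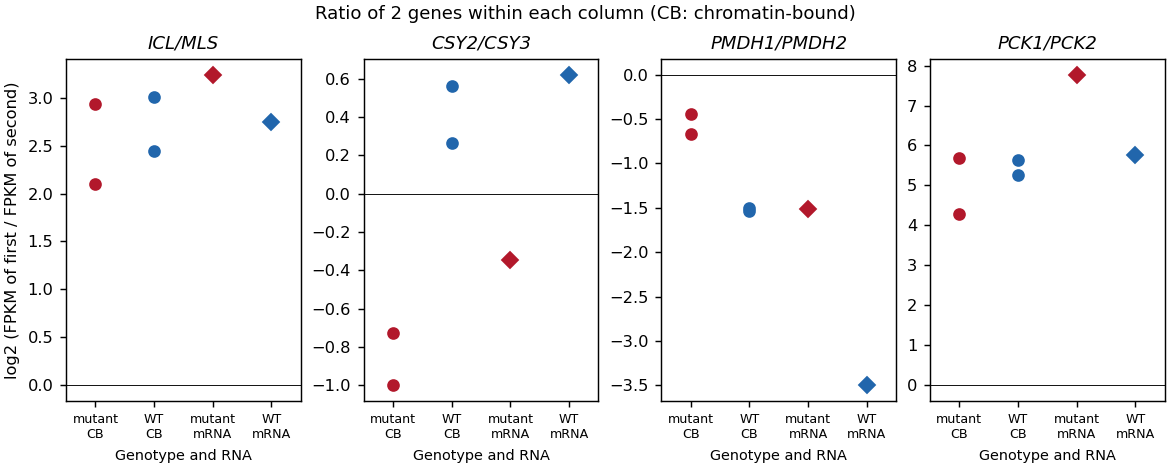
log2 ratio of 2 genes within the same column for ICL over MLS, CSY2 over CSY3, PMDH1 over PMDH2 and PCK1 over PCK2, with the mutant left of the wild type, points for chromatin-bound columns (CB) and diamonds for mRNA values. CSY2 over CSY3 lies below 0 in the mutant and above 0 in the wild type in both kinds of RNA, and ICL over MLS overlaps between genotypes in chromatin-bound RNA.

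ICL and MLS also had the widest gaps of the 9 genes in mRNA. The authors' deposited table has ICL mRNA at 4773 FPKM in the mutant and 61.9 FPKM in the wild type, 77.1-fold higher, and MLS mRNA at 505 FPKM in the mutant and 9.23 FPKM in the wild type, 54.7-fold higher. By level, ICL was the 7th highest gene of the mutant's mRNA values and the 2447th of the wild type's. It alone held 0.542% of the FPKM total in the mutant and 0.00665% in the wild type.

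Smaller differences followed for 5 other genes. The authors' deposited table gives PCK1 at 548 FPKM in the mutant and 174 FPKM in the wild type (3.15-fold), and PMDH1 at 125 FPKM in the mutant and 48.7 FPKM in the wild type (2.57-fold). CSY3 was at 55.8 FPKM in the mutant and 23.4 FPKM in the wild type (2.38-fold), and ACO3 at 229 FPKM in the mutant and 104 FPKM in the wild type (2.21-fold), in the authors' deposited table. PMDH2 was the one of these that was lower, at 357 FPKM in the mutant and 549.97 FPKM in the wild type (0.649 times). For these 5 genes, ICL and MLS the authors' deposited q was 0.000329, the smallest value that table holds. CSY2, at 43.9 FPKM in the mutant and 36.03 FPKM in the wild type (q = 0.109), and PCK2, at 2.503 FPKM in the mutant and 3.20 FPKM in the wild type (q = 0.279), did not pass in the authors' deposited table.

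By the authors' q under 0.05, 35.0% of the 20361 genes that reached 1 FPKM in either genotype differed in mRNA, 17.1% higher and 17.9% lower in the mutant. Of the 9 genes 6 were higher and 1 lower. ICL, MLS and PMDH1 were called higher in both kinds of RNA, where 6.27% of the 18551 genes tested in both were called in 1 direction. CSY3, ACO3 and PCK1 were higher in mRNA with no chromatin-bound call, as were 11.3% of those genes. The median gene of all those tested had a log2 mRNA ratio of -0.01. The mRNA fold was larger than the chromatin-bound fold for 7 of the 9 genes, with PMDH2 and PCK2 the exceptions. Over the 18448 genes with a ratio in both kinds of RNA the mRNA fold was the larger for 32.1%. Their median log2 difference, mRNA minus chromatin-bound, was -0.27, so this share depends on how the columns are scaled. Among the lists described below, it was the larger for 16 of 20 beta-oxidation genes and 13 of 17 citrate, malate and succinate genes. It was the larger for 2 of 10 genes of phosphoenolpyruvate and malate turnover and 0 of 5 root markers. The table gives no replicate spread for mRNA, so the difference between the kinds of RNA was not tested.

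**Figure D4:**
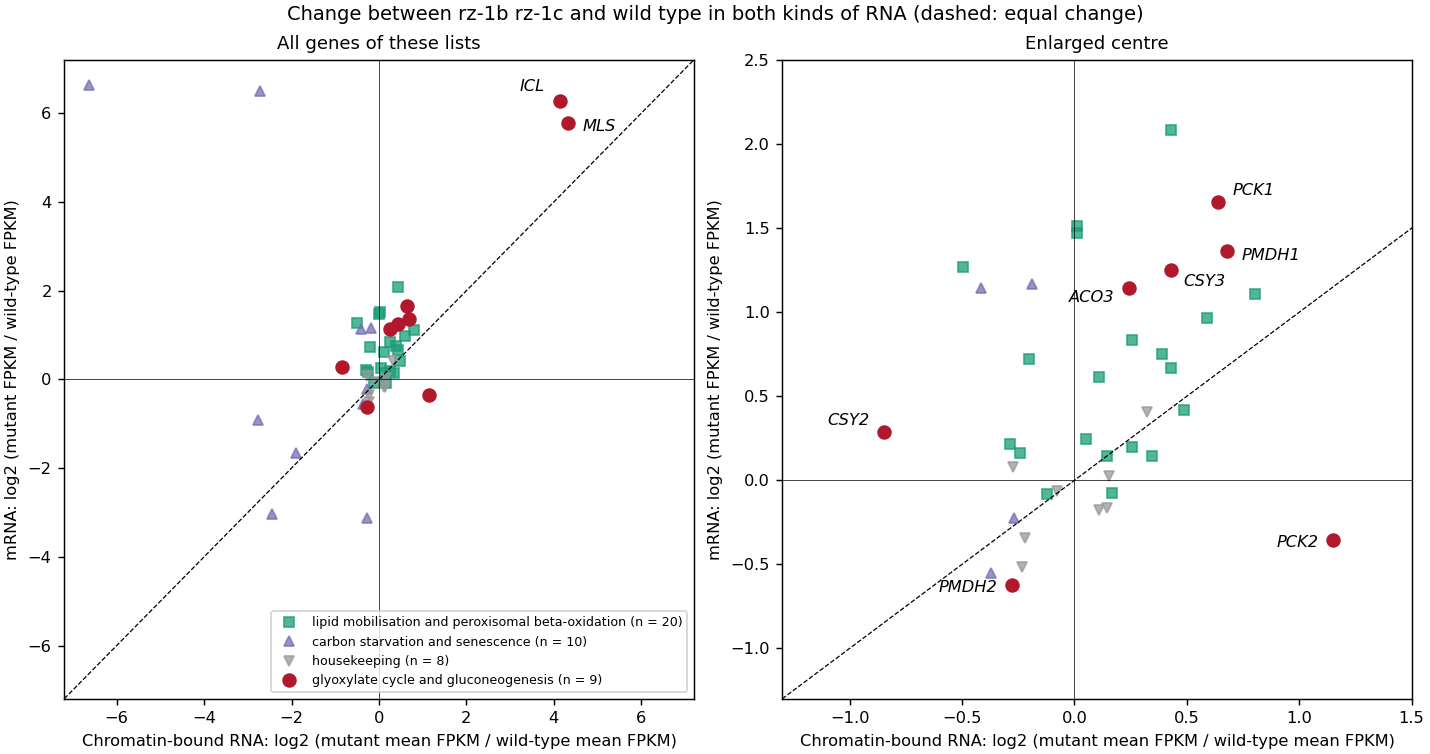
log2 ratio of mutant over wild-type FPKM in mRNA (vertical) against that in chromatin-bound RNA (horizontal, from means of 2 columns) for the 9 genes and 3 other lists, with equal change on the dashed line and the centre enlarged on the right. ICL and MLS lie at the upper right, CSY3, PMDH1, ACO3 and PCK1 sit above the dashed line beside many beta-oxidation genes, and CSY2 and PCK2 have opposite signs on the axes. Rescaling would shift points sideways, and ACO3 then lies on either side of 0 on the horizontal axis.

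The genes whose values were most like those of ICL and MLS were found by Euclidean distance over 6 values, namely log2(FPKM + 1) in the 4 chromatin-bound columns and the 2 mRNA values, each kind centred on its own mean. Among 13268 genes that reached 5 FPKM in a genotype in both kinds of RNA, the nearest was AT3G02480 (distance 0.317), with 52.1 and 58.2 FPKM in mutant and 2.38 and 3.61 FPKM in wild-type chromatin-bound RNA. M17 (AT2G41260) followed at 0.465, with 23.3 and 30.4 FPKM in mutant and 0.908 and 1.503 FPKM in wild-type chromatin-bound RNA. ECP63 (AT2G36640), an embryonic protein gene of the late embryogenesis abundant family, lay at 0.778, AT3G17520 at 0.837, AT2G42560 at 0.892 and AT2G47780 at 0.949. The distance used the same values by which ICL and MLS stood out, so a rise in their nearest genes was built in. All 6 reached 5 FPKM in chromatin-bound RNA only in the mutant, so nothing is read from their rise. ICL and MLS themselves lay at 0.412 from their shared mean. Of the other members PCK1 came closest, at a distance of 4.53 and rank 332, and CSY2 and PMDH2 were at ranks 11913 and 12130.

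The summed level of seed markers was higher in the mutant, as were ICL and MLS. The 13 seed storage and oil-body genes summed to 70.5 and 97.1 FPKM in the mutant columns and to 5.60 and 2.55 FPKM in the wild-type columns, and in the authors' deposited table to 615 FPKM in mutant and 11.6 FPKM in wild-type mRNA. The cruciferin gene CRA1 held most of the chromatin-bound sum, at 44.8 and 58.4 FPKM in the mutant columns and 1.14 and 0 FPKM in the wild-type columns. The oleosin gene OLEO2 was at 10.3 and 17.3 FPKM in the mutant columns and 1.13 and 0 FPKM in the wild-type columns, and the cruciferin gene CRU3 at 9.58 and 13.2 FPKM in the mutant columns and 0.893 and 0 FPKM in the wild-type columns. In chromatin-bound RNA 4 of the 13, these 3 and OLEO1, passed the filter, each through its mutant values, so that their direction was fixed by the filter and their calls are not used. The other 9 lay under it and not all were higher in the mutant, with the albumin gene SESA5 at a mean of 0.113 FPKM in the mutant and 0.683 FPKM in the wild type, and the oleosin gene OLEO4 at 0.311 FPKM in the mutant and 0.559 FPKM in the wild type. In mutant replicates 1 and 2 the files list 2 and 0 of the 13 at 0, and in wild-type replicates 1 and 2 they list 5 and 8. Whole seedlings were used, so more cells of a type and more RNA per cell cannot be told apart, and the part of seed-type tissue or of developmental stage in the rise of ICL and MLS was not tested.

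Genes of the neighbouring pathways were counted from lists chosen by function. The first list, lipid mobilisation and peroxisomal beta-oxidation, holds genes of the route that supplies the cycle with acetyl-CoA. In chromatin-bound RNA 1 of its 20 genes rose, 0 fell and 19 did not pass (limma, median log2 change 0.15 against 0.27 for all genes), where 13.2% of all genes rose and 4.24% fell. The rise was SDP1-LIKE, a triacylglycerol lipase gene, at 10.6 and 9.76 FPKM in the mutant and 5.58 and 6.12 FPKM in the wild type (limma adjusted p = 0.0461), and the call was lost in 9 of 12 alternatives, each fit with 1 replicate left out among them. After median-of-ratios or quantile scaling, or with rRNA left out of the totals, 0 of the 20 were called higher and 1 lower. Over all genes these scalings gave between 1176 and 1445 calls higher and between 1541 and 1694 lower. By the authors' deposited table, mRNA was higher in the mutant for 11 of the 20 genes and lower for 0, where 17.1% of all genes were higher and 17.9% lower. Chosen after its values were seen, the multifunctional beta-oxidation gene MFP2 had the widest mRNA gap of the list in the authors' deposited table, at 176 FPKM in the mutant and 41.6 FPKM in the wild type, and its chromatin-bound log2 change of 0.41 did not pass (limma adjusted p = 0.143).

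Beyond PCK1, the list of gluconeogenesis and sucrose synthesis had 2 rises and 2 falls among 23 genes in chromatin-bound RNA. Over all genes tested 13.2% rose and 4.24% fell. The sucrose-phosphate synthase gene SPS3F was called higher, at 5.94 and 6.31 FPKM in the mutant and 0.922 and 0.926 FPKM in the wild type. It passed the filter through its mutant values, so nothing is read from that call. The aldolase gene FBA7 rose 2.12-fold (limma adjusted p = 0.0130). The sucrose-phosphatase gene SPP1 (AT1G51420) fell to 2.39 and 2.03 FPKM in the mutant, against 7.64 and 9.51 FPKM in the wild type (limma adjusted p = 0.00644). These 3 calls were lost with either mutant replicate left out. The pyruvate phosphate dikinase gene PPDK fell to 0.527 times the wild-type mean (limma adjusted p = 0.0434), a call lost in 6 of 12 alternatives, those without either mutant replicate or wild-type replicate 2 among them, while the authors' deposited table has its mRNA 3.73-fold higher in the mutant. By that table, mRNA was higher in the mutant for 6 of the 23 and lower for 3, where 17.1% of all genes were higher and 17.9% lower.

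The next 3 lists stand against 13.2% of all genes that rose and 4.24% that fell in chromatin-bound RNA. Those shares belong to the deposited scale, with 2595 calls higher and 835 lower over all genes. Median-of-ratios rescaling gave 1329 higher and 1544 lower over all genes, and quantile normalization 1445 and 1541. With rRNA left out of the totals there were 1176 higher and 1694 lower. Among 18 genes of citrate, malate and succinate metabolism outside the peroxisome, 1 rose and 2 fell in chromatin-bound RNA and 14 of the 17 tested did not pass. After median-of-ratios or quantile scaling 0 were called higher and 4 lower, and with rRNA left out of the totals 0 higher and 7 lower. The cytosolic malate dehydrogenase gene c-NAD-MDH2 rose 1.88-fold (limma adjusted p = 0.0285), and the mitochondrial citrate synthase gene ATCS (AT2G44350) fell to 0.656 times the wild-type mean (limma adjusted p = 0.0434). Both calls were lost with either mutant replicate or wild-type replicate 2 left out, that of ATCS also without wild-type replicate 1, and that of c-NAD-MDH2 also after median-of-ratios rescaling. Of 11 genes of phosphoenolpyruvate and malate turnover, 2 rose and 1 fell, and under each of these 3 scalings 1 was called higher and 2 lower. The malic enzyme gene NADP-ME1 was called higher, at 20.7 and 18.7 FPKM in the mutant and 1.16 and 0 FPKM in the wild type. It passed the filter through its mutant values, so nothing is read from that call. NADP-ME2 fell to 0.379 times the wild-type mean (limma adjusted p = 0.00384), and the phosphoenolpyruvate carboxylase gene PPC2 rose 1.66-fold (limma adjusted p = 0.0381). The authors' deposited table has PPC2 mRNA lower in the mutant, at 100 FPKM against 156 FPKM in the wild type (q = 0.00062). The calls of NADP-ME2 and PPC2 were lost with either mutant replicate left out, and that of PPC2 also without wild-type replicate 2 and after median-of-ratios rescaling. Of 13 leaf peroxisome and photorespiration genes 0 rose and 1 fell, the glycolate oxidase gene GOX3 (limma adjusted p = 0.0334). That call was lost with either mutant replicate or wild-type replicate 2 left out. Under the same 3 scalings 0 of the 13 were called higher and between 5 and 8 lower. In the authors' deposited table, mRNA was higher in the mutant for 6 genes of the citrate, malate and succinate list and lower for 3. For phosphoenolpyruvate and malate turnover 1 was higher and 6 lower, and for the leaf peroxisome list 1 was higher and 5 lower. Of all genes 17.1% were higher and 17.9% lower.

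ICL, MLS and PCK1 are also known to respond to sugar starvation and leaf senescence, so genes of those states were counted. The part of these states in the rise of ICL and MLS was not tested. In chromatin-bound RNA 5 of 11 such genes fell, 0 rose, and 5 of the 10 tested did not pass, where 13.2% of all genes rose and 4.24% fell. The 5 that fell include SAG13, which is set aside below. The asparagine synthetase gene ASN1 fell to 6.46 and 3.19 FPKM in the mutant, against 26.1 and 26.3 FPKM in the wild type (limma adjusted p = 0.00419). The senescence regulator NAC6 (AT5G39610), also known as ORE1, fell to 2.11 and 1.07 FPKM in the mutant, against 11.1 and 10.7 FPKM in the wild type (limma adjusted p = 0.00365). AT4G35770 also fell, to 9.88 and 6.55 FPKM in the mutant, against 27.03 and 34.2 FPKM in the wild type (limma adjusted p = 0.005001), and is named here after its values were seen. DIN2 fell to 0.151 times the wild-type mean (limma adjusted p = 0.0134). SAG13 was called lower, at 0.0101 times the wild-type mean, but it passed the filter through its wild-type values, so nothing is read from that call. In mRNA 3 of the list were higher and 4 lower in the authors' deposited table, where 17.1% of all genes were higher and 17.9% lower. By that table ASN1 was at 20.4 FPKM in the mutant and 168 FPKM in the wild type. DIN2 mRNA went against its chromatin-bound direction and passed, at 21.6 FPKM in the mutant and 0.240 FPKM in the wild type (authors' q = 0.000329). SAG13 mRNA also went against its chromatin-bound direction, at 6.91 FPKM in the mutant and 0.0693 FPKM in the wild type, but did not pass (q = 0.227). Fewer of these calls held with either mutant replicate left out. Without mutant replicate 2 only those of SAG13 and ASN1 did, and nothing is read from that of SAG13.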

How the data were processed

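The authors deposited chromatin-bound values as FPKM, 1 table per genotype with 2 replicate columns, and an mRNA table with 1 value per genotype that is read as FPKM, since its unit is not written in the file, and a q-value, per the file headers. Cuffdiff 2.2.1, Cufflinks, StringTie 1.3.4d, HISAT2 2.0.5, TopHat2 2.1.1 and the build TAIR10 are named, without their roles, in the submitters' processing notes. How the 2 libraries of a replicate number were combined is not stated there. FPKM are shares of a column's total, so rRNA left in a column lowers its other genes. Of the columns 1 was not used, since it repeats mutant replicate 2 at all 33602 genes. The iCLIP libraries were not analysed here. Changes were fitted with limma 3.58.1 (R 4.3.3, intensity trend, two-sided) on log2(FPKM + 1), genotype as the only term, over genes averaging 1 FPKM or more; this scale understates changes of low genes. Folds were taken between mean FPKM. The fit was tested on simulated data. Each genotype's columns come from a separate table, so scalings were varied. mRNA calls are the authors' q under 0.05. Alternatives were pseudocount 0.1, no filter or a mean of at least 5 FPKM, 4 rescalings, each replicate left out, and a replicate block. Names follow RefSeq TAIR10.1 (32835 of 33602 identifiers matched). The members and lists were chosen with earlier results of these data known. From each other list up to 4 called genes with at least 5 FPKM and the largest changes are named, or the 2 highest where none was called, and the 6 genes nearest to ICL and MLS. Of the genes this rule selects, 1 is not reported here.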

Additional observations from a re-analysis of the deposited data

Results flagged for a closer look

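CSY2 and PCK2 differed in sign between the kinds of RNA. Both mutant columns of CSY2 lay below both wild-type columns in chromatin-bound RNA, while its log2 mRNA ratio from the authors' deposited values was 0.29 (q = 0.109). Both mutant columns of PCK2 lay above both wild-type columns, while its log2 mRNA ratio was -0.35 (q = 0.279). With 1 mRNA value per genotype these differences were not tested.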

How the results depend on the processing

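Without the filter on low values 1931 genes, 2 of the 9 members and 15 genes of the other lists were called, against 3430, 4 and 25 with it. Leaving out 1 replicate gave between 227 and 4988 genes, between 2 and 4 members, and between 6 and 27 list genes. The fewest came without mutant replicate 2 and the most without wild-type replicate 1; in such a fit the lone column is assumed to vary like the others. Without mutant replicate 1 there were 348 genes, 2 members and 11 list genes, and without wild-type replicate 2 there were 16 list genes. With rRNA left out of the totals 38 list genes were called, and 2870 genes in all. The causes were not tested. A pseudocount of 1 moved the wild-type log2 ratio of PMDH1 to PMDH2 to -1.49 and that of PCK1 to PCK2 to 4.99, from -1.52 and 5.44. With the replicate number as a block 4520 genes, 5 members and 28 list genes were called; same-numbered columns did not deviate together (r = 0.0142 across genes), so the numbers are not read as pairs. Rescaling to 8 housekeeping genes, chosen after seeing the data, gave 4050 genes, 4 members and 25 list genes. At a q under 0.01, 7 of 9 members were still called in mRNA. Total depth is unknown. Wild-type replicate 2 came out shallowest by every estimate, while wild-type replicate 1 lay at 1.52 times its depth and mutant replicate 1 at 1.40 or 2.81 times.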

Other observations

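The 8 housekeeping genes held 0 chromatin-bound calls by limma, with a median log2 change of 0.04, and the 2 highest expressed were AT5G60390, an elongation factor gene at a log2 change of 0.32 (limma adjusted p = 0.25), and ACT2 at -0.23 (limma adjusted p = 0.40). Among the 6 green shoot markers CAB2 rose 1.68-fold (limma adjusted p = 0.0422), a call lost in 8 of 12 alternatives, those without either mutant replicate or wild-type replicate 2 among them. Among the 5 root markers the iron uptake genes FRO2 and IRT1 rose, and PRP3 fell to 0.456 times the wild-type mean (limma adjusted p = 0.0326), a call lost without either mutant replicate or wild-type replicate 2. FRO2 was at 14.7 and 20.3 FPKM in the mutant columns and at 0.148 and 0 FPKM in the wild-type columns. IRT1 was at 9.83 and 14.7 FPKM in the mutant columns and at 0.243 and 0 FPKM in the wild-type columns. Both genes passed the filter through their mutant values, so nothing is read from their calls. By the authors' deposited table, mRNA was higher in the mutant for 0 of the 5 root markers and lower for 4, where 17.1% of all genes were higher and 17.9% lower.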
